A study of Bos taurus with 27 samples.

Results

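Transcripts of 41 genes of apoptosis and the p53 response were examined in bovine blastocysts, out of 32637 genes counted. The genes were chosen by name, as regulators and targets of p53, members of the BCL2 family, caspases and their inhibitors, mitochondrial proteins released in apoptosis, and components of death receptor signalling, and all 41 were rows of the count table. The data cover 27 pools of 2 blastocysts, kept by the study after other sequenced pools were left out for insufficient read depth. The embryos were produced by in vitro fertilization of abattoir oocytes with semen of the same bull. Preovulatory follicular fluid had been added to the oocytes during maturation, from follicles classed as of greater or of lesser maturity, and all embryos were at the expanding to expanded stage and of quality score 1. The labels give neither the follicle maturity treatment nor the fertilization replicate of a pool, so no treatment was compared, and values are given over all 27 pools as the lowest, the median and the highest. Variation among pools therefore includes treatment, replicate and the 2 embryos in the pool, which were not separated here.

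In a cell under stress, the transcription factor p53 is released from its inhibitors MDM2 and MDM4 and raises the transcripts of genes that arrest the cell cycle, repair DNA or promote cell death. MDM2 is itself a p53 target, which closes a negative feedback loop. Cell death by the mitochondrial route is set by the balance among BCL2 proteins: BH3-only proteins sense damage, MCL1 and BCL2L1 (BCL-XL) hold the pore-forming proteins BAX and BAK1 in check, and an opened outer membrane lets out the proteins that lead to caspase activation. The inner cell mass of the blastocyst is a known site of cell death in embryos produced in vitro.

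Abundance was expressed as CPM, the reads counted on a gene scaled to a library of 1000000 counts. Total counts were between 10517606 and 44253564, with a median of 22293594, and 3 counts were equal to between 0.0678 and 0.285 CPM, a limit that covers counting error only. Of the 41 genes, 36 had at least 1 CPM in 12 pools and were retained, among 12310 retained genes in all, and 31 of the 41 reached 1 CPM in every pool. Together the 41 genes held 0.209% of all counts, and the median of the medians was 18.8 CPM for the 36 retained genes and 14.4 CPM for all retained genes. Keratin transcripts of the trophectoderm, the outer layer, were abundant in every pool, with KRT8 between 10633 and 26270 CPM. Other trophectoderm markers were far lower, with medians of 132 CPM for GATA3, 3.62 CPM for CDX2 and 1.35 CPM for ELF5, which had no count in 5 pools. Of the epiblast markers, NANOG was between 15.3 and 133 CPM, whereas FGF4 and NODAL were under 1 CPM in every pool, as was the hypoblast marker SOX17. Leukocyte markers summed to between 19.7 and 135 CPM, although LAPTM5 and CD79A did not reach 1 CPM in any pool, and cumulus and granulosa markers summed to between 36.5 and 528 CPM, most of it HSD3B1. Because these are bulk pools, fewer cells of a type and less RNA per cell cannot be told apart. Reads came from the 3′ end of transcripts, so CPM was not divided by length, and an order of levels among genes also reflects how well each 3′ end was captured and annotated.

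The set covered a wide range of abundance. Cyclin G1 (CCNG1, chromosome 7, 75115945 to 75123209 on ARS-UCD2.0), a p53 target that acts with MDM2, was the most abundant at 191, 416 and 689 CPM (lowest, median and highest pool). The anti-apoptotic protein MCL1 followed at 255, 330 and 456 CPM, and the executioner caspase CASP6 at 129, 225 and 306 CPM. These 3 genes were in the top 10% of retained genes by median. At the other end, 5 genes were not retained, namely BCL2, BCL2L2, BIK, BBC3 and CASP2.

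**Figure D1:**
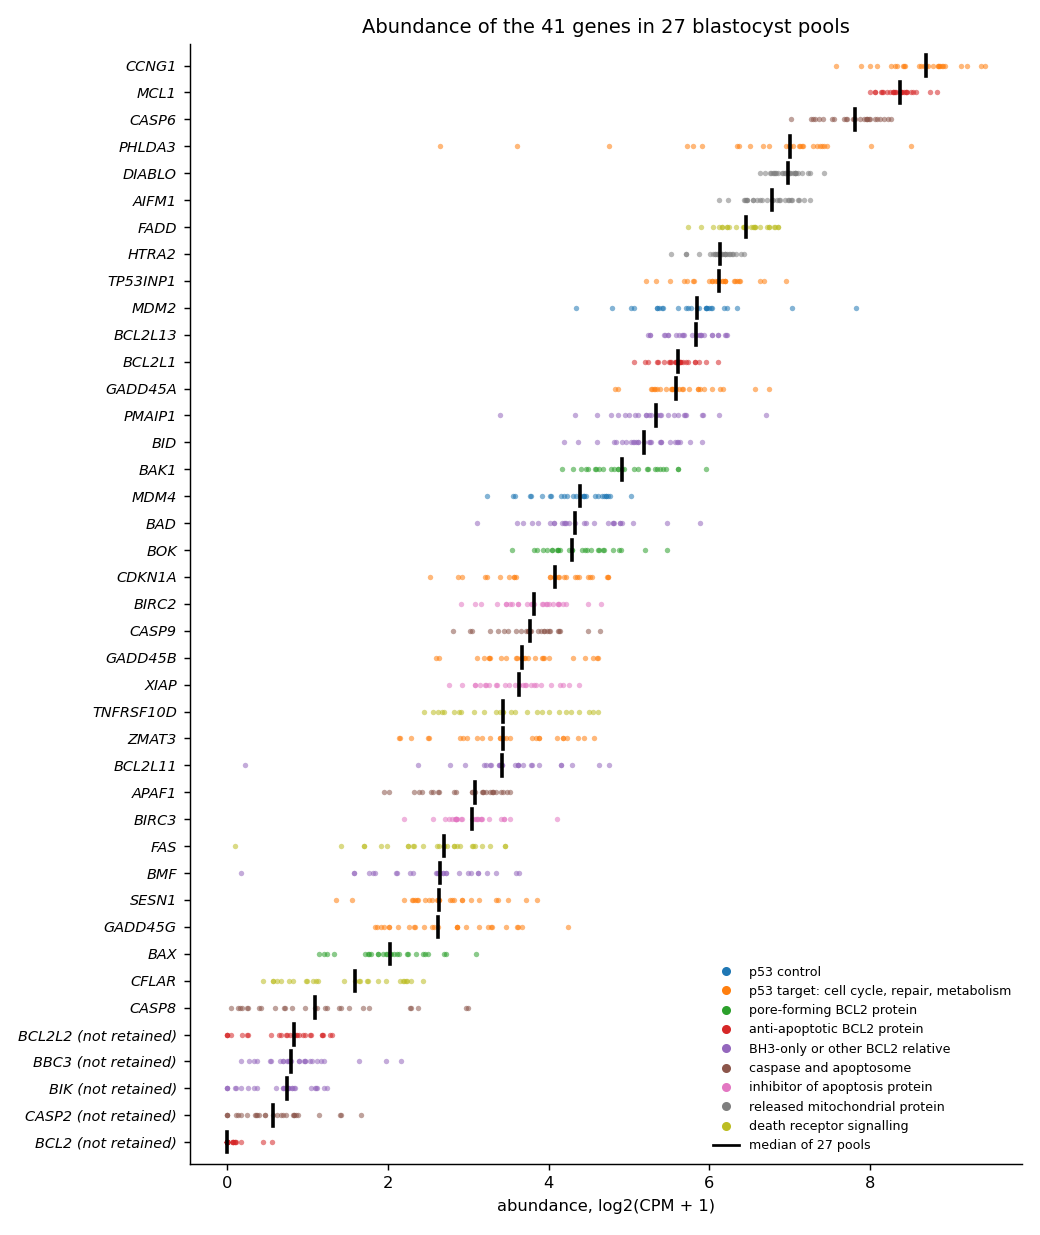
Abundance of the 41 genes on the scale log2(CPM + 1), with a point for each of the 27 pools, a black bar at the median and colours for the role of the gene. CCNG1, MCL1 and CASP6 lie at the top, PHLDA3 has 2 pools far below the others, and the 5 genes that were not retained lie at the foot of the plot.

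The controllers of p53 differed in how much they varied. MDM2 (chromosome 5, 44977671 to 45005325), the ubiquitin ligase that degrades p53, was at 19.3, 56.4 and 226 CPM. The highest value, in pool 1, was 1.74 times that of pool 35 (129 CPM), the second highest, and pool 36 was lowest, followed by pools 15 (26.8 CPM) and 31 (31.7 CPM). MDM4, its partner that blocks p53 without degrading it, was at 8.39, 20.03 and 31.5 CPM. Within a pool, the ratio of MDM2 to MDM4 CPM was between 1.00 and 9.30, with a median of 2.58.

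All 9 p53 targets of cell cycle arrest, repair and metabolism were retained, with medians between 5.16 and 416 CPM. PHLDA3 (chromosome 16, 80876874 to 80879903), which inhibits AKT signalling, was at 5.28, 128 and 363 CPM. Its 2 lowest pools, 31 (5.28 CPM) and 9 (11.2 CPM), were well under the third lowest, pool 36 at 25.8 CPM, and its highest, pools 1 and 35 (259 CPM), were also the highest for MDM2. TP53INP1, a p53 co-factor that promotes autophagy and death, was at 36.2, 68.7 and 123 CPM, again highest in pool 1. CDKN1A (chromosome 23, 10573389 to 10590591), which encodes the cell cycle inhibitor p21 and is the target most often used as a readout of p53, was less abundant, at 4.72, 15.9 and 25.7 CPM. It did not single out pool 1, where it was at 15.9 CPM, and its highest values were in pools 9 and 19. ZMAT3 (chromosome 1, 88005950 to 88044844), an RNA-binding protein induced by p53, was at 3.38, 9.75 and 22.6 CPM, and the sestrin SESN1, which restrains mTORC1, was at 1.55, 5.21 and 13.5 CPM. Of the GADD45 stress sensors, GADD45A was the most abundant at 27.4, 47.0 and 106 CPM, with pools 1 and 21 (94.4 CPM) above the rest. GADD45B had a median of 11.7 CPM and GADD45G of 5.16 CPM.

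Among pore-forming BCL2 proteins, BAK1 transcripts exceeded those of BAX in every pool. BAK1 was at 16.9, 29.2 and 61.3 CPM and BAX at 1.21, 3.06 and 7.56 CPM, and the ratio of BAK1 to BAX CPM was between 3.03 and 20.4, with a median of 10.5. BOK, the third member of this group, was at 10.7, 18.6 and 43.6 CPM. Since CPM is not a level per length or per 3′ end, the ratios describe reads and not the relative number of molecules.

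Anti-apoptotic transcripts came from MCL1 and BCL2L1, with almost none from BCL2. The ratio of MCL1 to BCL2L1 CPM was between 5.07 and 9.67, with a median of 6.87, and BCL2L1 itself was at 32.4, 48.0 and 68.2 CPM. BCL2 had 36 counts in all pools together, none in 17 of the pools, and did not exceed 0.475 CPM. BCL2L2 (BCL-W) had a median of 0.771 CPM and no count in 3 pools.

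BH3-only proteins and other relatives of BCL2 were led by BCL2L13, a mitochondrial membrane protein with a role in mitophagy, at 36.9, 56.1 and 73.3 CPM, and by PMAIP1 (NOXA), a p53 target that neutralises MCL1, at 9.55, 39.5 and 103 CPM. PMAIP1 was highest in pool 9 and lowest in pool 31. BID, which links death receptors to mitochondria, had a median of 35.3 CPM, and BAD, which responds to growth factor withdrawal, of 19.0 CPM with a highest value of 58.1 CPM in pool 32. BCL2L13 and BID lie next to each other on chromosome 5 with 1 base between their annotated ends, so the counts of the pair may not be fully separable. BCL2L11 (BIM), the broadest activator of the group, was at 0.163, 9.73 and 25.9 CPM, and the low value belonged to pool 31 with 5 counts. The next lowest pool, 15, had 4.16 CPM. BMF had a similar outlying low value, 0.125 CPM or 3 counts in pool 5, against a median of 5.29 CPM. BBC3 (PUMA), the p53 target that binds all anti-apoptotic BCL2 proteins, had a median of 0.730 CPM and reached 3.45 CPM in pool 45, and BIK had a median of 0.673 CPM.

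Of the caspases and the apoptosome, CASP6 was by far the most abundant. The initiator CASP9 was at 6.03, 12.7 and 23.9 CPM and its scaffold APAF1 at 2.86, 7.50 and 10.5 CPM. CASP2 had a median of 0.475 CPM and reached 1 CPM in 4 pools. CASP8 (chromosome 2, 89861821 to 89885546), the initiator caspase of death receptors, was at 0.0326, 1.13 and 6.96 CPM. It was highest in pools 14 (205 counts) and 9 (99 counts) and lowest in pool 31 (1 count). Transcripts for proteins released from mitochondria were abundant and steady by comparison. DIABLO and HTRA2, which displace inhibitors of apoptosis from caspases, were at 98.0, 125 and 171 CPM and at 45.1, 69.5 and 85.1 CPM, and AIFM1, a flavoprotein of the intermembrane space, was at 68.6, 109 and 151 CPM. The inhibitors themselves were lower, with medians of 13.1 CPM for BIRC2, 11.4 CPM for XIAP and 7.26 CPM for BIRC3. BIRC3 was highest in pool 9 at 16.2 CPM, against 10.5 CPM in pool 19, the second highest.

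In death receptor signalling, the adaptor FADD was at 52.2, 87.1 and 115 CPM, whereas the receptor and the regulators were far lower. FAS, a receptor induced by p53, was at 0.0652, 5.47 and 10.01 CPM, with 2 counts in pool 31 and 1.66 CPM in pool 45, the second lowest. TNFRSF10D, a receptor that binds TRAIL, was at 4.45, 9.82 and 23.5 CPM and was highest in pool 1. CFLAR, which blocks CASP8 at the receptor, was at 0.359, 2.02 and 4.43 CPM.

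Some pools held the lowest or highest values of several genes. Pool 31 held the lowest value of 9 of the 36 retained genes (25.0%), namely BCL2L11, MCL1, BAD, PMAIP1, CASP8, CASP9, BIRC2, FAS and PHLDA3, but it also held the lowest value of 17.9% of all retained genes. Pool 15 was lowest for 6 genes (16.7%), against 6.16% of all retained genes. Pools 15 and 31 also had the lowest TMM factors, by which edgeR scales the total count (0.891 and 0.906). CPM here was not scaled by these factors, and scaling would raise the values of both pools. The lowest pool of each gene was not counted again with that scaling. Pool 1 was highest for 5 genes (13.9%), against 4.12% of all retained genes, and these were MDM2, GADD45A, TNFRSF10D, PHLDA3 and TP53INP1. Pool 28, which had the lowest total count, was highest for 5 other genes, CASP6, CASP9, XIAP, HTRA2 and SESN1, against 5.62% of all retained genes. Pool 31 had the highest summed trophectoderm (38521 CPM) and hypoblast (109.7 CPM) markers and the lowest leukocyte sum (19.7 CPM). Most of the trophectoderm sum was KRT8 (26270 CPM) and KRT18 (12064 CPM). These and CDX2 were highest in pool 31, but GATA3 was highest in pool 14 and ELF5 in pool 9. Of the hypoblast markers, HNF4A (69.2 CPM) was highest in pool 31, PDGFRA in pool 32, GATA4 in pool 45 and SOX17 in pool 35. The part of these sums in the low values of pool 31 was not tested.

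The spread of a gene across pools beyond counting error was measured as the biological coefficient of variation estimated by edgeR. Its median was 32.6% for the 36 genes and 33.7% for all retained genes, and 17 of the 36 were above the latter. CASP8 (105%), CFLAR (68.4%) and PHLDA3 (63.4%) varied the most. CASP8 and CFLAR were also the retained members of lowest median CPM, and among the 1000 retained genes nearest to them in abundance they stood at percentiles 88.4 and 48.8. PHLDA3 stood at percentile 99.2 of the genes nearest to it, and MDM2, with 45.0%, at percentile 96.2. The steadiest were MCL1 (14.3%), DIABLO (15.99%) and HTRA2 (17.4%), at percentiles 14.8, 17.9 and 11.7. Of the 36 genes, 4 were above the 90th percentile of the genes nearest in abundance, namely PHLDA3, MDM2, BCL2L11 (92.9) and PMAIP1 (92.5). The 2 below the 10th percentile were BCL2L1 (6.7) and BIRC3 (8.6), and not the 3 genes of lowest variation.

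To find which members moved together, the counts of every retained gene were fitted on the MDM2 level across the 27 pools. The slope is the log2 change of a gene for each doubling of the covariate, on the log2(CPM + 1) scale for the covariate, and p-values come from edgeR's quasi-likelihood test with Benjamini-Hochberg adjustment over all genes tested. The SE was derived from that test, as the absolute slope divided by the square root of the F statistic. CCNG1 rose with MDM2 and was the only member to pass, with a slope of 0.47 ± 0.09 (SE, n = 27 pools), or 1.38-fold per doubling of MDM2 (adjusted p = 0.0114 by edgeR). Over 12309 genes, 0.0812% were called higher and 0.0406% lower with MDM2, and the members called were 1 of 35 higher and 0 of 35 lower. At an unadjusted p under 0.05, 12 of the 35 members and 1159 of all genes passed. DESeq2 called 5 of the 35 members higher and 0 lower, and 85 of all genes, 43 higher and 42 lower. The 3 pools lowest in CCNG1 were 36 (191 CPM), 15 (237 CPM) and 31 (254 CPM), the same as for MDM2. The highest in CCNG1 were pools 5 (689 CPM) and 9 (668 CPM), where MDM2 was at 73.7 and 80.6 CPM.

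No other member that is a p53 target passed, and some had larger slopes on MDM2 than CCNG1. PHLDA3 had a slope of 1.01 ± 0.23 (SE, adjusted p = 0.0571 by edgeR), with pools 9 and 31 far below the rest, and passed when pool 9, 12, 19 or 31 was left out. TP53INP1 (0.33 ± 0.08, adjusted p = 0.0738), ZMAT3 (0.72 ± 0.18, adjusted p = 0.101) and TNFRSF10D (0.63 ± 0.16, adjusted p = 0.124) did not pass either. All 4 were called by DESeq2 and by edgeR when all genes with a count were fitted, and edgeR also called ZMAT3 without pool 31 and TP53INP1 without pool 15 or 32. The slope of CDKN1A on MDM2 was 0.30 ± 0.18 (SE, adjusted p = 0.647 by edgeR). Over the 35 members, the median slope was 0.13 against 0.01 for all genes, and 29 had a positive slope against 52.0% of all genes. By role, slopes were positive for 8 of 9 targets of cell cycle, repair and metabolism (median 0.33), 3 of 4 members of death receptor signalling (0.31), 3 of 3 pore-forming proteins (0.24), 3 of 3 inhibitors of apoptosis (0.19) and 4 of 6 BH3-only and related proteins (0.13). They were also positive for 2 of 2 anti-apoptotic proteins (0.10), 3 of 4 of the caspases and apoptosome (0.09), MDM4 (0.05) and 2 of 3 released mitochondrial proteins (0.02). CASP6 had a slope of -0.22 with an unadjusted p of 0.0238 (adjusted p = 0.445 by edgeR). The call of CCNG1 was lost when pool 36 was left out (slope 0.41, adjusted p = 0.0897 by edgeR) and when the leukocyte sum was a covariate (slope 0.37, adjusted p = 0.199 by edgeR).

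**Figure D2:**
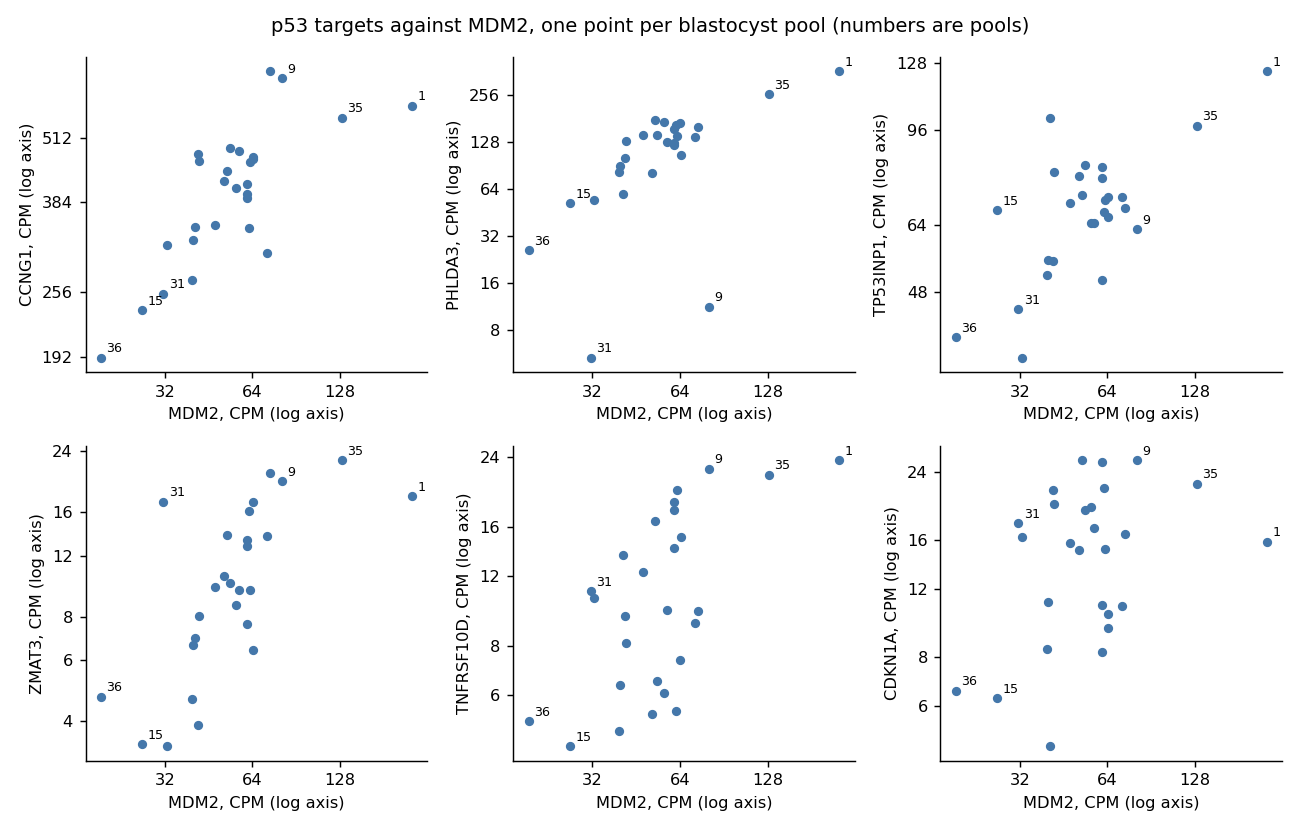
CPM of 6 members against CPM of MDM2 on log axes, with a point for each of 27 pools and the numbers of pools 1, 9, 15, 31, 35 and 36. CCNG1 rises with MDM2 from pool 36 (191 CPM), but its highest values are in pools 5 (689 CPM, not numbered) and 9 (668 CPM), above pools 35 and 1. PHLDA3 rises with MDM2 except in pools 9 and 31, and CDKN1A in pool 1 is at its median of 15.9 CPM.

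Beyond the members, 18 of 22 other p53 targets were tested against MDM2. AEN, a nuclease of p53-dependent apoptosis, was the one called, with a slope of 0.34 ± 0.07 (SE, adjusted p = 0.0247 by edgeR), and the list had a median slope of 0.19. None of 20 tested other apoptosis genes was called by edgeR with MDM2, with a median slope of 0.05.

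With CDKN1A as the covariate, none of 35 members passed, although more genes overall did. Of 12309 genes, 0.829% were called higher and 0.561% lower. The member of lowest p was CCNG1, with a slope of 0.38 ± 0.11 (SE, adjusted p = 0.0775 by edgeR). At an unadjusted p under 0.05, 8 members and 1780 of all genes passed. DESeq2 called 3 members, namely CASP8, CCNG1 and BAX, all higher, and 420 genes in all, 294 of them higher. In edgeR, CASP8 had a slope of 1.60 ± 0.47 (SE, adjusted p = 0.0816) and BAX of 0.67 ± 0.21 (SE, adjusted p = 0.0936). The median slope was 0.12 for the members and 0.01 for all genes. Among the other apoptosis genes, ENDOG, a mitochondrial nuclease, fell with CDKN1A, with a slope of -0.47 ± 0.12 (SE, adjusted p = 0.0386 by edgeR), and none of 18 other p53 targets was called, with a median slope of 0.15.

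MDM2 and ZMAT3 were lower in pools with a higher sum of epiblast markers. The epiblast sum (NANOG, SOX2, FGF4, NODAL and PRDM14) was at 36.5, 84.2 and 171 CPM, lowest in pool 35 and highest in pool 45. NANOG had the highest median of the 5, 51.6 CPM, against 22.2 CPM for PRDM14 and 6.86 CPM for SOX2. NANOG was highest in pool 45 (133 CPM), whereas SOX2 and PRDM14 were highest in pool 32, where the sum was 101 CPM. The markers were not fitted one by one. Of 12307 genes, 0.0488% were called higher and 0.0244% lower with this sum, and the members called were 0 of 36 higher and 2 of 36 lower. MDM2 fell with a slope of -0.77 ± 0.15 (SE, adjusted p = 0.0325 by edgeR) and ZMAT3 with a slope of -0.92 ± 0.19 (SE, adjusted p = 0.0393 by edgeR). Pools 45 (171 CPM of epiblast markers), 15 (143 CPM) and 41 (145 CPM) were the 3 lowest in ZMAT3, at 3.38, 3.44 and 3.89 CPM. Pools 36 (144 CPM) and 15 were the 2 lowest in MDM2, and pools 1 (48.3 CPM) and 35 (36.5 CPM) the 2 highest. At an unadjusted p under 0.05, 9 members and 863 of all genes passed.

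All 9 p53 targets of cell cycle, repair and metabolism had negative slopes on the epiblast sum, with a median of -0.31. The slope of PMAIP1, a p53 target of the BH3-only group, was 0.016. Of all 36 members, 8 had a positive slope. By role, positive slopes were 0 of 3 for pore-forming proteins (median -0.29) and 0 of 2 for p53 controllers (-0.39). They were 0 of 2 for anti-apoptotic proteins (-0.12), 1 of 4 for death receptor signalling (-0.27) and 1 of 3 for inhibitors of apoptosis (-0.12). BH3-only and related proteins had 2 of 6 (-0.09), caspases and the apoptosome 2 of 4 (0.05) and released mitochondrial proteins 2 of 3 (0.05). The median was -0.15 over the 36 members and -0.01 over all genes, of which 47.0% had a positive slope. TP53INP1 had a slope of -0.35 ± 0.09 (SE, adjusted p = 0.167 by edgeR) and was called lower by DESeq2. That tool called 3 of the 36 members, all lower, and 64 of all genes, 45 higher and 19 lower. CASP6 had a slope of 0.30 ± 0.09 (SE, adjusted p = 0.289 by edgeR). The list of 18 other p53 targets had a median slope of -0.18 with 0 called, and the 20 other apoptosis genes a median of 0.00 with 0 called. The calls of MDM2 and ZMAT3 were both lost when pool 45 was left out (adjusted p = 0.0800 and 0.107 by edgeR) and with the leukocyte sum as a covariate (adjusted p = 0.0638 and 0.0527 by edgeR), with slopes of -0.77, -0.85, -0.67 and -0.89. Leaving out each pool in turn kept the call of MDM2 in 20 of 27 fits and that of ZMAT3 in 15 of 27, and the slopes stayed between -0.81 and -0.56 and between -1.01 and -0.85. The MDM2 call was lost without pools 1, 15, 21, 24, 35, 36 or 45, and the ZMAT3 call also without pools 13, 22, 26, 41 or 42. The fits on MDM2 and on the epiblast sum used the same 27 pools.

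**Figure D3:**
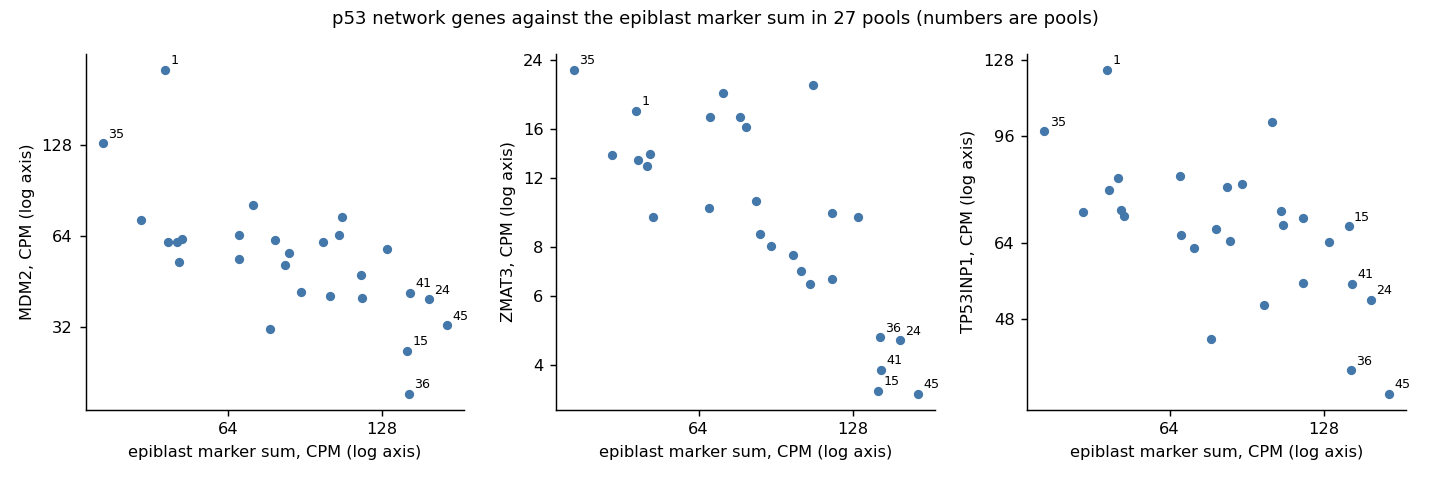
CPM of MDM2, ZMAT3 and TP53INP1 against the summed CPM of epiblast markers on log axes, with a point for each of 27 pools. Pools 1 and 35 lie at the upper left of the MDM2 panel, and pools 15, 36 and 45 at the lower right of the panels for MDM2 and ZMAT3.

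**Figure D4:**
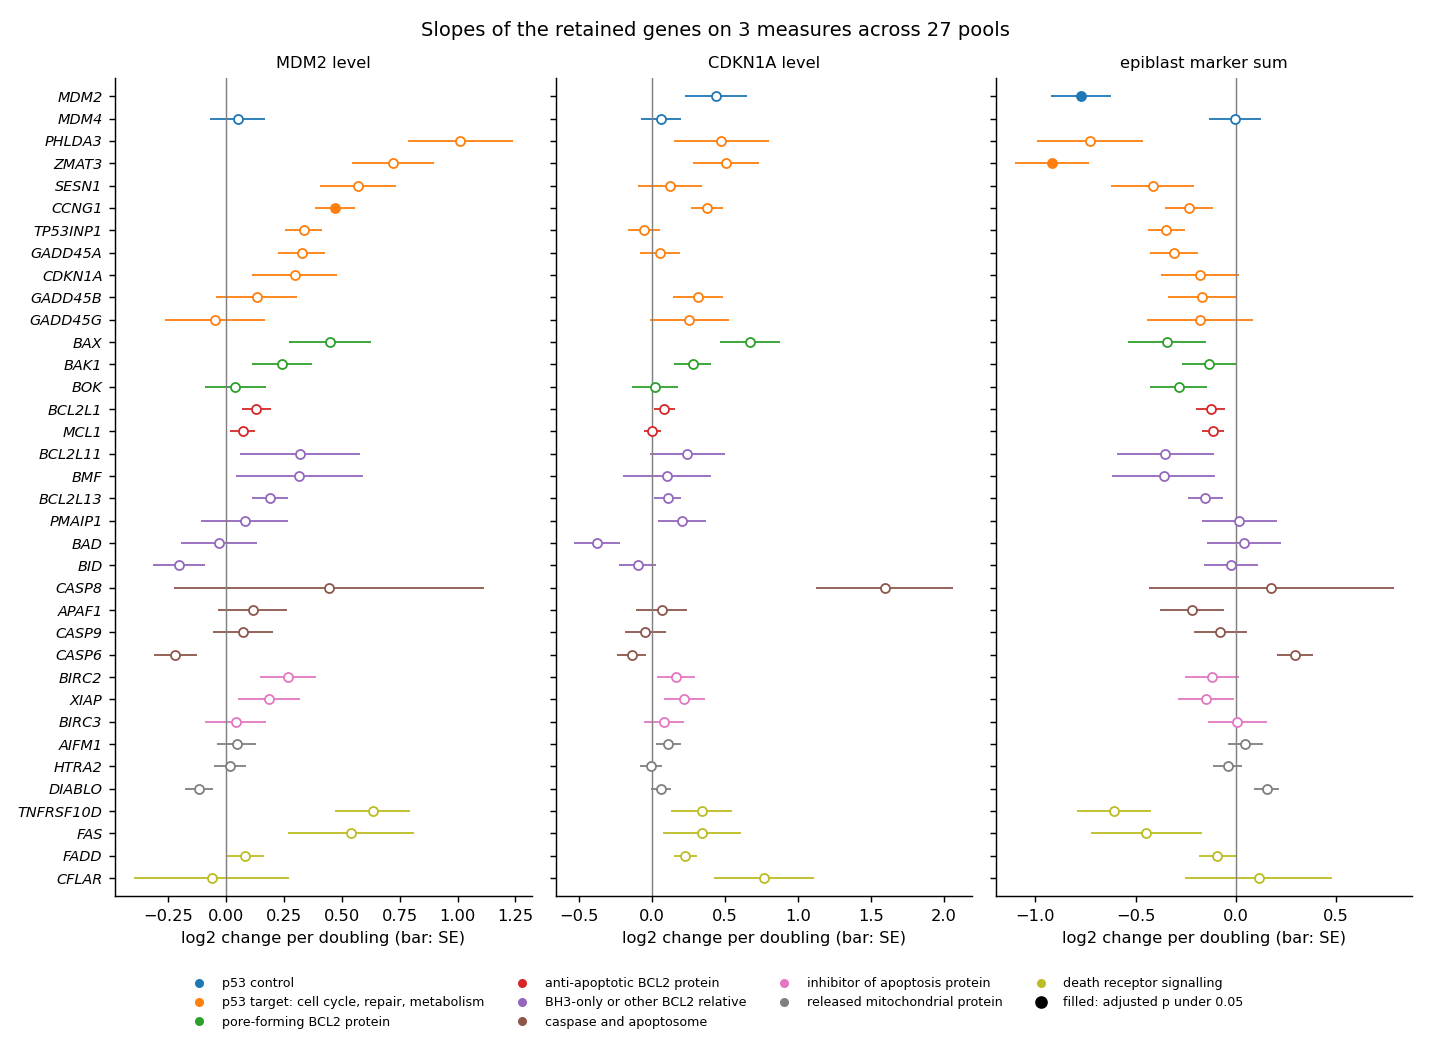
Slopes of the retained members, as log2 change per doubling, on the MDM2 level, the CDKN1A level and the epiblast marker sum over 27 pools, with bars of 1 SE and colours for role. Filled points mark the adjusted p under 0.05, held by CCNG1 in the panel for MDM2 and by MDM2 and ZMAT3 in the panel for epiblast markers. Most members, the p53 targets among them, lie right of 0 in the first panel and left of 0 in the third.

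The integrated stress response is another stress pathway, driven by ATF4, that acts on some of the same genes. The sum of ATF3, DDIT3, TRIB3, CHAC1 and ASNS was at 44.2, 73.7 and 228 CPM, highest in pool 21. MCL1 and FAS were also highest in pool 21, and BAK1, XIAP, FADD and AIFM1 lowest. Pool 21 was highest for 5.56% of the 36 members against 5.54% of all retained genes, and lowest for 11.1% against 4.76%. It also had the highest sum of Y-linked transcripts (197 CPM), and the part of either sum in these values was not tested. None of 36 members passed in edgeR, 7 members and 861 of all genes had an unadjusted p under 0.05, and DESeq2 called 0 members. Of 12305 genes, 0.0813% were called higher and 0.00813% lower. MCL1 had the lowest p, with a slope of 0.22 ± 0.06 (SE, adjusted p = 0.295 by edgeR), and without pool 21 the slope was 0.15 (adjusted p = 0.997 by edgeR).

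Y-linked transcripts were measured because XIAP and AIFM1 are on the X chromosome. Their sum was 1.65 CPM or less in 9 pools and between 18.9 and 197 CPM in 18, and slopes were estimated within the latter 18. XIAP had a slope of -0.10 ± 0.14 (SE, adjusted p = 0.858 by edgeR) and AIFM1 of -0.20 ± 0.07 (SE, adjusted p = 0.238 by edgeR). The only member that passed was CASP8, which fell with a slope of -1.97 ± 0.39 (SE, n = 18 pools, adjusted p = 0.0237 by edgeR). In the 9 pools outside the fit, which had the fewest Y-linked transcripts, CASP8 was between 0.502 CPM (pool 38) and 4.18 CPM (pool 41). The slope therefore describes the 18 pools only. Of 12305 genes, 0.0406% were called higher and 0.333% lower, and the members called were 0 of 36 higher and 1 of 36 lower, with 7 members and 1334 of all genes at an unadjusted p under 0.05. Pools 9 (18.9 CPM of Y-linked transcripts) and 14 (26.5 CPM) were the lowest of the 18 in these transcripts and the highest of all pools in CASP8, at 6.82 and 6.96 CPM. The call was lost without either pool (adjusted p = 0.163 and 0.0503 by edgeR) and in pools with at least 30 CPM of Y-linked transcripts (slope -1.87, adjusted p = 0.478 by edgeR). Pools 9 and 14 were also the highest in interferon tau transcripts, at 589 and 264 CPM. Pool 9 had the highest leukocyte (135 CPM) and cumulus and granulosa (528 CPM) sums as well, against 42.9 and 182 CPM in pool 14. With the leukocyte sum as a covariate, CASP8 was still called (slope -1.99, adjusted p = 0.0416 by edgeR). The part of interferon tau and of cumulus and granulosa transcripts in the CASP8 values was not tested.

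**Figure D5:**
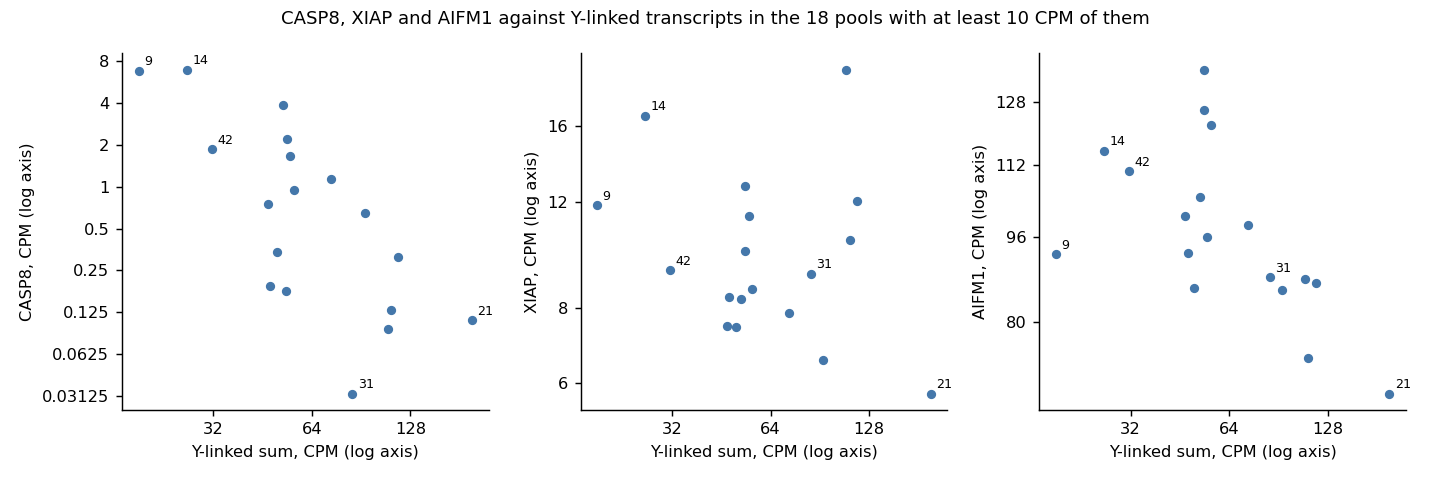
CPM of CASP8, XIAP and AIFM1 against summed CPM of Y-linked transcripts on log axes in the 18 pools with at least 10 CPM of them. CASP8 is highest in pools 9 and 14 and lowest in pool 31, and the points for XIAP and AIFM1 are more scattered.

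No member was called against depth. None of 36 passed against the total count in edgeR, 2 members and 340 of all genes had an unadjusted p under 0.05, and DESeq2 called 0 members, while 0% of 12310 genes were called higher and 0% lower. The member of lowest p was CFLAR, with a slope of 1.03 ± 0.36 (SE, adjusted p = 1.00 by edgeR).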

How the data were processed

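Libraries of 27 pools of 2 blastocysts were read from the 3′ end (SMART-Seq v4 kit). The authors used fastp for trimming, STAR for mapping to ARS-UCD2.0 and featureCounts for counting, and deposited raw counts per gene that were not normalized. Tool versions and the annotation release are not given in the sources used here. The counts are reads and not molecules. All columns were matched to pools by number, and treatment and replicate were assigned to none, so no comparison of treatments was made. The members and further gene lists were chosen with earlier results of these data known.

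CPM used the total count of each pool. Genes that reached 1 CPM in 12 or more pools were fitted with edgeR 4.0.16 (quasi-likelihood test, TMM normalization) on the log2(CPM + 1) of a level or marker sum or on log2 of the total count, with Benjamini-Hochberg adjustment over all genes tested and a threshold of 0.05. Genes in a covariate were not tested against it. Pools came from separate embryos, and nothing says which shared a replicate, so p-values assume independent pools. Members named were those that passed, otherwise the lowest p, and the 3 of highest and lowest dispersion. Others named with a slope, among them PHLDA3, TP53INP1, TNFRSF10D, BAX and CASP6, were chosen after their values were seen. Alternatives were DESeq2 1.42.0, RLE normalization, all counted genes, a pseudocount of 0.1, added covariates and pools left out, and leaving out each pool in turn was chosen after seeing the data. Positions and neighbours came from RefSeq ARS-UCD2.0, matched by symbol for all 41 members, and TNFRSF10D had no assigned chromosome. The fits were also run on simulated counts drawn independently for each pool, which cannot test the assumption of independent pools. R 4.3.3, Python 3.11.15 and pandas 2.3.3 were used.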

Additional observations from a re-analysis of the deposited data

How the results depend on the processing

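DESeq2 called more genes than edgeR: 420 against CDKN1A, 85 against MDM2, 38 against the stress response sum, 64 against epiblast markers and 216 against Y-linked transcripts, with 3 members against CDKN1A and 5 against MDM2. Fitting all genes with a count called 917, 287, 390, 577 and 648 genes in the same order and 561 against the total count, with 1 member against CDKN1A and 5 against MDM2. With the leukocyte sum as a covariate, 5 genes and 0 members were called against MDM2, 0 members against epiblast markers and 27 genes against Y-linked transcripts. With the total count as a covariate, 1 member was called against epiblast markers, where ZMAT3 was lost (adjusted p = 0.0566 by edgeR), and 28 genes against Y-linked transcripts. Leaving out the highest pool of the covariate gave 100 genes against CDKN1A, 1 against the stress response sum, 3 genes and 0 members against epiblast markers and 87 genes against Y-linked transcripts. At 30 CPM or more of Y-linked transcripts, 0 genes and 0 members were called.

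Leaving out each pool in turn, the counts were between 4 and 27 genes and between 0 and 3 members against MDM2, between 1 and 28 genes and between 0 and 3 members against epiblast markers, and between 0 and 93 genes and between 0 and 1 members against Y-linked transcripts. RLE normalization and a pseudocount of 0.1 changed no count by more than 1.5 times. The sign of a slope was compared across the planned settings only for members called or of lowest p, and for XIAP and AIFM1 on Y-linked transcripts. Among these, only XIAP changed sign, at 30 CPM or more of Y-linked transcripts (slope 0.084, adjusted p = 0.962 by edgeR). With each pool left out in turn, the slope of MDM4 on MDM2 was between -0.016 and 0.112. That of PMAIP1 on the epiblast sum was between -0.067 and 0.079. TMM scaling moved the median CPM of a member by a factor between 0.926 and 1.04. Which pool was lowest or highest for each gene was counted without it. No paired analysis was possible because the labels place no pool in a group. The cause of the difference between tools was not tested. Genes near the limit of 3 counts, such as BCL2, CASP8 in some pools and CASP2, are the least precise.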
